A study of Mus musculus with 4 samples.

Results

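The comparison described here is that of C3H10T1/2 cells at day 4 after induction of adipocyte differentiation with the same line at day 0. It was chosen by the sample labels alone and rests on 2 of the 4 arrays of the study, 1 for each day. C3H10T1/2 is an established mouse line of fibroblast-like mesenchymal cells that is known for giving rise to fat, bone, cartilage and muscle cells under the right stimuli. The other 2 arrays hold 3T3-L1, a mouse line already committed to the fat lineage, at the same days, and are used only for comparison. The labels name no genotype, transgene or clone for either day, and the agents of the induction are not given in the sources used here. The arrays were Arraystar designs for mouse long noncoding RNAs and mRNAs, each hybridised with the Cy3-labelled RNA of 1 sample.

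Adipocyte formation from mesenchymal cells proceeds through an early wave of transcription factors, which induce PPAR gamma and C/EBP alpha, and then through a broad program of lipid synthesis, lipid storage and hormone genes. The cells leave the cell cycle, lose parts of their fibroblast matrix and cytoskeleton, and raise glucose use, NADPH supply and mitochondrial content. Iron uptake through the transferrin receptor feeds the iron-containing enzymes of those mitochondria.

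All values come from 1 array a day. A difference between the days therefore has no replicate check, no p-value was computed for any, and a fold change describes these 2 arrays. Levels are log2 intensities from which that array's own 75th percentile was taken off, and that percentile was 321 intensity units at day 0 and 364 at day 4, so a level of 0 is the brightness of that percentile. Probes were well above background, in the scanner software's call, for 59.0% of 60900 at day 0 and 60.1% at day 4, and 5 of 300 spots of negative control probes were so called on either array. No spot was saturated. The median change in 4 equal stretches of the array, by row or by column, lay between -0.07 and -0.02 on the log2 scale. The files pair most probes with no gene, and none of 44 marker genes in 6 cell type lists (adipocyte, fibroblast and mesenchymal progenitor, osteoblast, chondrocyte, myoblast, macrophage) could be matched to a probe. Of 11 pathway lists, those for adipocyte genes, early adipogenic regulators, lipolysis, brown and beige fat and the cell cycle had 0 named members. The cell type of the labels was therefore not checked against markers.

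Names could be given to 15 probes, those with an mRNA accession of RefSeq, and an array holds 20 spots of each. Of these 15 genes, 2 were at least 2-fold higher at day 4 (Tfrc and G6pd2) and 0 were at least 2-fold lower, while over all 38303 probes above background on at least 1 array 8.52% were 2-fold higher and 7.63% lower. Another 11 of the 15 lay within 1.5-fold, and the median change of the 15 was -0.12 on the log2 scale, against -0.04 for all probes. Errors are SDs over the spots of a probe within these arrays, from 13 to 20 spots a gene after outlier spots were left out, and hold no spread between cultures.

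Tfrc encodes the transferrin receptor, the gate for iron entry into the cell. Its probe had a level of 4.03 ± 0.06 at day 0 and 7.12 ± 0.05 at day 4 in C3H10T1/2, from intensities of 5240 ± 204 and 50550 ± 1769. The difference of 3.09 ± 0.08 is a signal 8.52-fold higher at day 4, larger than the changes of 99.1% of all probes, and no spot of one day reached those of the other. In 3T3-L1 the levels were 5.27 ± 0.05 and 6.24 ± 0.09. C3H10T1/2 thus began below and ended above the other line, and its day 0 level was the lowest of the 4 arrays. Of the 9 genes in a list for iron uptake and storage, Tfrc was the sole one with a name on the array.

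G6pd2 is a retrotransposed copy of the gene for glucose-6-phosphate dehydrogenase, the entry enzyme of the pentose phosphate pathway and a source of NADPH for fatty acid synthesis. Its level was 1.08 ± 0.05 at day 0 and 2.53 ± 0.05 at day 4 (intensities of 679 ± 22.0 and 2106 ± 74.5), a 2.74-fold higher signal with spots of the days apart. In 3T3-L1 the levels were 0.98 ± 0.05 and 2.38 ± 0.06, so the lines had like levels on each day. Transcripts of its X-linked parent gene G6pdx, a near-identical copy, could give this signal as well. It was the sole named member of a list of 7 genes for NADPH supply.

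Glycolysis was represented by the RefSeq probe of Gapdh and, outside the main probe set, by 12 control probes whose names give Gapdh or Pgk1, a species and a 3 or a 5. Gapdh makes a high-energy intermediate of glycolysis, and Pgk1 draws ATP from it. The RefSeq probe of Gapdh was at 7.86 ± 0.05 at day 0 and 8.32 ± 0.04 at day 4, 1.37-fold higher. The control probes gave larger changes, from 1.09 to 2.04 on the log2 scale over 6 probes of Gapdh and from 1.37 to 2.74 over 6 of Pgk1, with spots of the days apart for 12 of 12 probes. The top of the Pgk1 range came from probes that were dim at day 0: after normexp and quantile normalization Rat-PGK1_3 (38.7 units at day 0) changed by 1.61 in place of 2.74 and Human-PGK1_5 (38.1 units) by 1.61 in place of 2.70. Normexp here added an offset of 50 units to each signal, which by itself shrinks the folds of dim probes. In the main values, probes of the same gene differed by more than their spot SD, which was at most 0.12 for the changes of Gapdh and 0.41 for those of Pgk1.

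Within the control probes the 5-named probe had the larger change in the mouse and human pairs of both genes. In the rat Gapdh pair it was 1.97 ± 0.07 for the 5-named probe and 1.89 ± 0.12 for the 3-named. The rat Pgk1 pair had the opposite order, with 2.74 ± 0.41 for Rat-PGK1_3 and 2.43 ± 0.08 for Rat-PGK1_5. After normexp and quantile normalization that order turned, with 1.61 for Rat-PGK1_3 and 2.06 for Rat-PGK1_5. The normexp offset shrinks the dimmer probe more (38.7 units at day 0 for Rat-PGK1_3, 195 for Rat-PGK1_5), so this turn does not settle the order. Mouse-PGK1_3 went from 40438 ± 1228 to 118800 ± 4020 intensity units (1.37 ± 0.07 on the log2 scale), and Mouse-PGK1_5 from 216 ± 9.0 to 1268 ± 39.3 (2.37 ± 0.07). Mouse-GAPDH_3 went from 29919 ± 1399 to 72348 ± 3380 (1.09 ± 0.09) and Mouse-GAPDH_5 from 13695 ± 388 to 50589 ± 1660 (1.70 ± 0.06). In the mouse and human pairs the 5-named probe was also the dimmer at day 0. The parts of the named end and of brightness in these differences were not tested. In 3T3-L1 the ranges were 1.32 to 2.49 for Gapdh and 1.19 to 2.53 for Pgk1, so probes of both genes were higher at day 4 in each line.

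**Figure D1:**
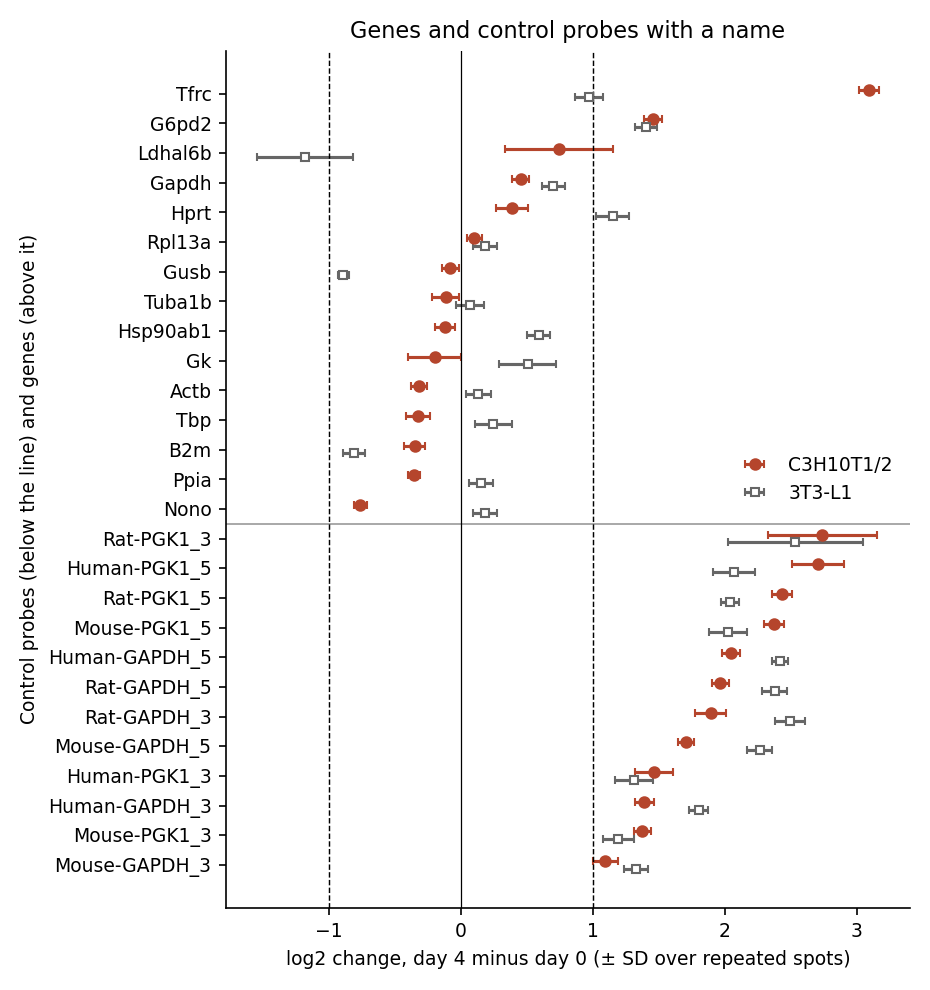
Log2 change from day 0 to day 4 (x axis) of the 15 genes with a RefSeq accession (above the line) and the 12 control probes named for Gapdh or Pgk1 (below it). Filled circles are C3H10T1/2 and open squares 3T3-L1, bars are SDs over repeated spots of the same arrays, and dashed lines mark 2-fold. Ldhal6b is drawn without a bound for its dim arrays. Tfrc stands apart with 3.09 in C3H10T1/2, G6pd2 has nearly equal values in the lines, and the control probes lie at or above 1.09 in C3H10T1/2.

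The promoter windows of the 2 genes past 2-fold, of Pgk1 and of Nono, the named gene with the lowest change, are shown because they carry the extremes of the genes with a name. They are the RefSeq windows of GRCm38.p6, 5′ to 3′ on the plus strand of each gene, from 250 bases before to 30 bases after the annotated start (for Tfrc the first of 2 listed windows): Tfrc at chr16:32608646-32608925, Pgk1 at chrX:106186850-106187129, G6pd2 at chr5:61808593-61808872 and Nono at chrX:101429401-101429680. Capitals mark ACGTG on either strand, the core letters of the hypoxia response element, a motif chosen after these windows had been seen.
Tfrc: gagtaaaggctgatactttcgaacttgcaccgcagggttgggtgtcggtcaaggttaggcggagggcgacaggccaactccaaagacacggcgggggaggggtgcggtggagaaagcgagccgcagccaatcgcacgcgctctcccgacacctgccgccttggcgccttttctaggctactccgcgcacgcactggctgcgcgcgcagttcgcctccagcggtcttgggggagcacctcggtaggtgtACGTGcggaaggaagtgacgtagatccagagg
Pgk1: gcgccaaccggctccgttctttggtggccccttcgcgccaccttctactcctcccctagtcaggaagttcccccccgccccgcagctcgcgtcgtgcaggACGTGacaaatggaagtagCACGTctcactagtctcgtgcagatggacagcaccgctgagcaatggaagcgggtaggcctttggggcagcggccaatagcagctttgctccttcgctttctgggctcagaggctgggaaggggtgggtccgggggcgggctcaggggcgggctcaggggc
G6pd2: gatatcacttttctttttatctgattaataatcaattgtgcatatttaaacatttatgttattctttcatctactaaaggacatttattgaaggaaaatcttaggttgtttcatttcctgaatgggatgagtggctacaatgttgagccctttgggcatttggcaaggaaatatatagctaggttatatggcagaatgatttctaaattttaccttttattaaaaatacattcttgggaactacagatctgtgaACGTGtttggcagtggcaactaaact
Nono: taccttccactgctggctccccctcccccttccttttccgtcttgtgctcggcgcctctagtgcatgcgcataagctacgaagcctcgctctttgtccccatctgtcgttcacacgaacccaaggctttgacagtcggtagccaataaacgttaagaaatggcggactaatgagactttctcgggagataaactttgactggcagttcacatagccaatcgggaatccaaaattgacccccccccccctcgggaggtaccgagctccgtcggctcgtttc
The motif occurred 2 times in the Pgk1 window and 1 time each in those of Tfrc and G6pd2, and 0 times in that of Nono. Among the 13 named genes with a window it occurred in 4 (the others were Rpl13a and Gk, both within 1.5-fold), and 18.6% of 27025 windows in the table hold it. CACGTG, which overlaps it, was in 2 of the 13 and in 6.89% of all windows. The box CCAAT was in 5 of the 13 windows, Tfrc and Nono among them, and in 36.6% of all, TATAAA in 3 and in 13.7%, and GGGCGG in 6 and in 34.9%. G6pd2 had the lowest G+C content of the windows shown, 31.8%, against 63.9% for Tfrc, 65.4% for Pgk1 and 54.6% for Nono. These counts describe letters and no binding was measured.

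Among enzymes of metabolism with a name, glycerol kinase (Gk), which returns glycerol to lipid synthesis, had levels of -0.95 ± 0.14 and -1.15 ± 0.15 at days 0 and 4 in C3H10T1/2, a change of -0.20 ± 0.20 with overlapping spots. It was the sole named member of 14 genes listed for lipid synthesis and storage. Hprt, of purine salvage, went from 6.66 ± 0.07 to 7.04 ± 0.10, 1.31-fold higher with spots of the days apart. Ldhal6b, a lactate dehydrogenase-like gene known from testis, was above background in 0 of 19 spots at day 0 and 18 of 19 at day 4, at least 1.47-fold higher by the lowest signal above background. Its intensities of 22.0 ± 4.6 and 41.5 ± 7.8 lay at the edge of detection.

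The other named genes had lower or equal signals at day 4. Nono, an RNA-binding protein of paraspeckles, had the lowest change, -0.76 ± 0.05, from a level of 4.00 ± 0.03 to 3.24 ± 0.04, 1.70-fold lower with spots apart. Other members of the paraspeckle list, 3 of 4, have no name on the array. Ppia, a peptidyl-prolyl isomerase, changed by -0.36 ± 0.05, B2m, which pairs with the heavy chains of class I antigen-presenting molecules, by -0.35 ± 0.08, the general transcription factor Tbp by -0.33 ± 0.09 and the cytoskeletal actin Actb by -0.32 ± 0.06. In each of these 4 the spots of the days did not overlap, although the changes were under 1.5-fold.

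Spots of the days overlapped for the lysosomal enzyme Gusb (-0.08 ± 0.07), the alpha-tubulin Tuba1b (-0.12 ± 0.10), the chaperone Hsp90ab1 (-0.12 ± 0.08) and the ribosomal protein Rpl13a (0.10 ± 0.06). The values of Tuba1b and Rpl13a changed sign in 3 of 6 other treatments of the data each, so neither has a direction. Of 18 genes on a list of reference genes, 11 had a name: 4 were above 0 and 7 below, their median was -0.12 and 1 (Tfrc) was past 2-fold. Processed pseudogenes of Actb, Ppia and Gapdh and near-identical copies of Tuba1b could add to their probes' signals.

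Across the array, the line's response was spread over many probes. Of 38303 probes above background on at least 1 array, 3262 were at least 2-fold higher at day 4 and 2921 at least 2-fold lower. The remaining 83.9% were not called, and 66.4% had a measured or minimum change under 1.5-fold. These shares include probes above background on 1 array only, whose fold is a minimum and may be larger. Without bounds 3781 probes were 2-fold higher and 3303 lower. With bounds taken as values, the quartiles of the change were -0.41 and 0.35 on the log2 scale, and its 5th and 95th percentiles -1.26 and 1.40. Scaling by the 75th percentile over detected probes (above background at each day) in place of all probes turned the balance, with 2972 higher and 3287 lower.

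Large changes leaned to the higher side. At 1.5-fold 6307 probes were higher and 6570 lower, the opposite order. At 4-fold or more 974 probes were higher and 571 lower, at 8-fold 379 and 131, at 16-fold 180 (0.47% of all) and 44 (0.115%), and at 64-fold 50 and 4. The 180 probes at least 16-fold higher had a median level of -2.68 at day 0 and 3.07 at day 4, and 62.8% of them were above background at day 0. The 44 probes at least 16-fold lower went from a median of 1.66 to -3.25. A dim array limits the size of a fold, so a fold counted by a bound, as for 67 of the 180 and 18 of the 44, is a minimum.

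Single probes without a gene name had the largest measured changes. Among probes above background on both arrays, ASMM10P054528 was highest, with 51.6 intensity units at day 0 and 56727 at day 4 in C3H10T1/2, 969-fold, and 139 and 36548 in 3T3-L1. The next, ASMM10P053039, went from 45.8 to 28605 in C3H10T1/2, 551-fold, whereas 3T3-L1 had 5.77, which is not above background, and 47.9. These probes shared a dim start in C3H10T1/2 and differed in the other line, where the second stayed dim at day 4. The lowest, ASMM10P045625, had 3378 units at day 0 and 41.1 at day 4 in C3H10T1/2, 93.1-fold lower, and 54.2 and 16.6 in 3T3-L1, the last not above background. ASMM10P033678 went from 1756 to 45.4, 43.8-fold lower, and from 300.3 to 54.1 in 3T3-L1. The lowest intensity above background was 24.5 at day 0 and 25.1 at day 4, so the dim array of each pair lay low in the measured range and the sizes of these folds are uncertain.

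More probes came above background than left it. Both arrays had 34188 probes above background, day 4 alone had 2394 and day 0 alone 1721. Most of these were close to the limit of detection, with a median level of -3.08 at day 4 and -2.98 at day 0, and by their bounds 663 (27.7%) of the first and 655 (38.1%) of the second were past 2-fold. After normexp and quantile normalization, where the offset shrinks dim folds, these counts were 315 and 162. With the 75th percentile of probes above background on both arrays they were 617 and 708, so which was larger depended on the scaling. At 8-fold by the bound, 137 probes appeared and 42 disappeared. The brightest of those seen at day 4 only reached a level of 6.24, and the brightest at day 0 only 4.37. Calls above background were made on unscaled signals. The lowest intensity so called was nearly equal (24.5 at day 0, 25.1 at day 4), while the day 4 array was brighter, with a 75th percentile of 364 against 321. The part of that brightness in the larger number at day 4 was not tested.

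The detection calls of 3T3-L1 differed for most of these probes. Of the 2394 seen at day 4 only in C3H10T1/2, 399 followed the same pattern in 3T3-L1, 1177 were above background on both of its arrays, 525 on neither and 293 at day 0 only. Of the 1721 seen at day 0 only, 648 followed the same pattern, 570 were detected at each day in 3T3-L1, 459 at neither and 44 at day 4 only. Over all 60900 probes, 63.9% were above background at day 0 in 3T3-L1 and 60.6% at day 4. These counts have no test. The share of all probes with each pattern was not computed, so the counts do not tell whether these patterns agreed more or less than for other probes.

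The balance of higher and lower probes shifted with signal level. Probes were put in 5 equal classes by the mean level of both arrays, a measure that treats the days alike. From the dimmest to the brightest level class the share at least 2-fold higher was 7.48%, 6.61%, 7.98%, 9.28% and 11.2%, and the share at least 2-fold lower 9.31%, 8.26%, 7.98%, 7.02% and 5.56%. In the brightest level class 861 probes were higher and 426 lower, a ratio of 2.02, with exact 95% binomial intervals of 10.5% to 12.0% and 5.06% to 6.10% that cover counting error only. In the dimmest level class 573 were higher and 713 lower.

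The lean in the brightest level class held under each scaling run, while that in the dimmest turned with normexp. Higher and lower shares in the brightest level class were 9.24% and 6.93% with quantile normalization, 9.21% and 6.95% with the authors' log2 values, 9.22% and 6.77% with normexp and 11.7% and 5.23% with array medians. In the dimmest level class normexp, whose offset shrinks dim folds, gave 1.20% higher and 0.835% lower, the opposite order. The other scalings kept the order there. Array medians gave 8.16% and 8.45%, quantile normalization 7.82% and 8.69%, and the authors' log2 values 7.81% and 8.69%. The 75th percentile over detected probes gave 6.64% and 10.5%. The median change in the brightest level class was 0.01, and -0.11 with quantile normalization. In the dimmest level class 3914 of 7661 probes were above background on 1 array only and enter by their bounds.

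**Figure D2:**
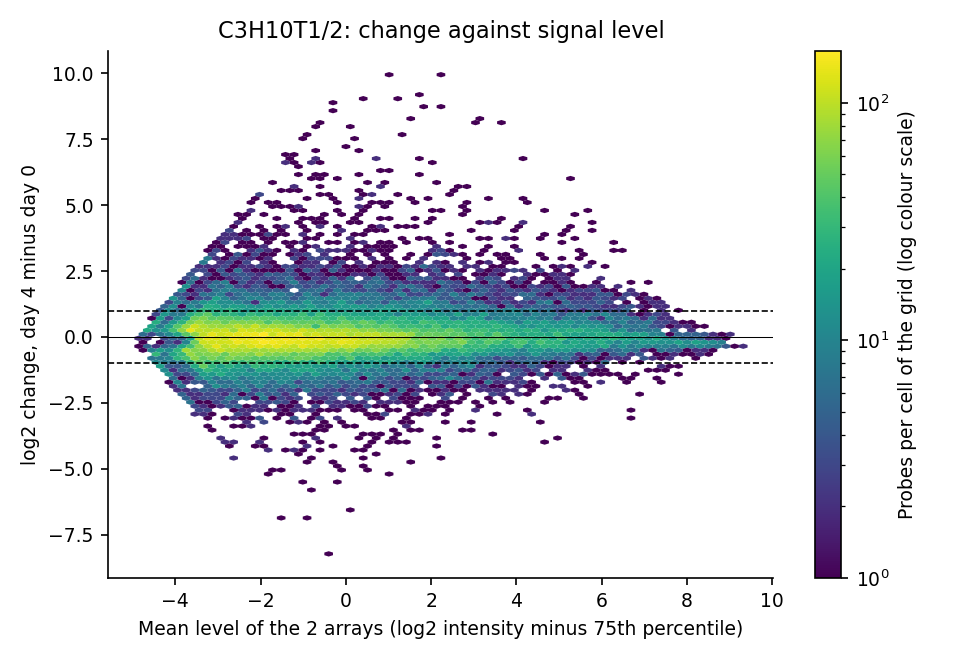
Log2 change from day 0 to day 4 in C3H10T1/2 (y axis) against the mean level of both arrays (x axis) for 38303 probes, with colour for the number of probes in each cell of the grid on a log scale. Dashed lines mark 2-fold. The upper side has more large changes than the lower, 180 against 44 probes at 16-fold.

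**Figure D3:**
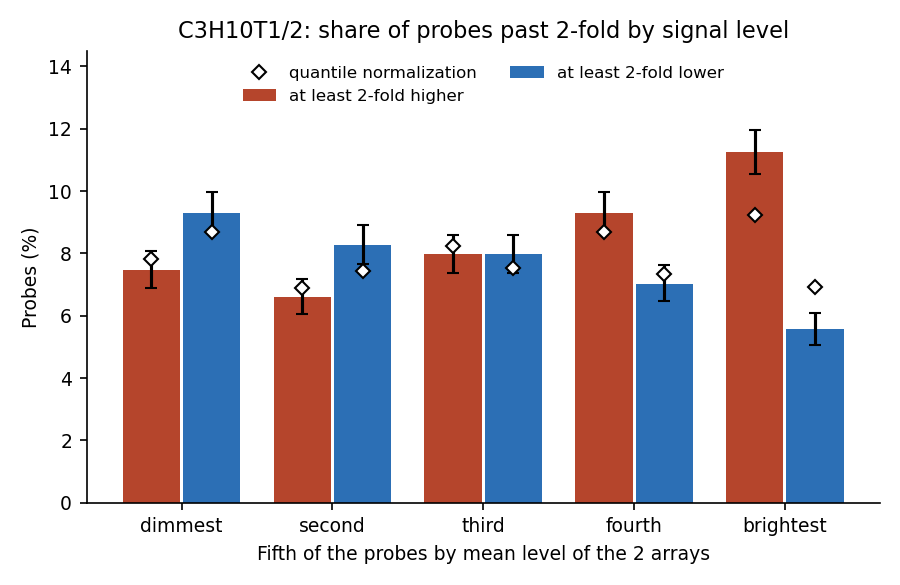
Percent of probes at least 2-fold higher or lower at day 4 in C3H10T1/2, in 5 equal classes of probes by mean level of both arrays. Bars are the main values with exact 95% binomial intervals and diamonds are the same shares after quantile normalization. Higher shares end at 11.2% and lower shares at 5.56% in the brightest level class, and the quantile values, 9.24% and 6.93%, keep the order there.

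Precision also followed the level. The scanner software's error, carried to the change between the arrays, had a median of 0.42 on the log2 scale in the dimmest level class and 0.26, 0.21, 0.21 and 0.20 in the others. Changes of 16-fold numbered 3 higher and 2 lower in the dimmest level class, 28 and 12 in the second, 54 and 18 in the third, 54 and 10 in the fourth and 41 and 2 in the brightest.

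The probes that changed carried a part of the array's summed intensity, which is brightness and not RNA mass. The 3262 higher probes held 4.27% of it at day 0 and 14.1% at day 4, and the 2921 lower probes 5.86% and 1.88%. Those at least 8-fold higher, 379 probes (0.989% of all), went from 0.138% to 2.61%. On the 3T3-L1 arrays the same 3262 probes held 6.15% at day 0 and 14.3% at day 4. The most intense probes were largely kept: of the 100 brightest at day 0, 80 were among the 100 brightest at day 4, and of the 1000 brightest, 799. Of the 201 that entered the brightest 1000, 132 were at least 2-fold higher, while 38 of the 201 that left were at least 2-fold lower. Over all 38303 probes the shares were 8.52% and 7.63%. Entry, exit and the C3H10T1/2 shares of intensity rest on the same arrays as the folds. Their directions therefore follow from the choice of probes.

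Families of probe names gave different shares. The main ASMM10P series, 37440 probes above background on at least 1 array, had 8.65% higher and 7.65% lower, close to the whole array because it makes up most of it. A group of 3 families is named for long intergenic noncoding RNAs (lincRNAs), transcripts from between protein-coding genes of which several are known regulators of cell fate. In these families together, 27.0% of 1834 probes were above background on at least 1 array, against 64.4% of the ASMM10P series. Of those 496 probes, 12 (2.42%, exact 95% binomial interval 1.26% to 4.19%) were at least 2-fold higher and 21 (4.23%, 2.64% to 6.399%) at least 2-fold lower. Both intervals lie below the shares of the ASMM10P series.

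The lincRNA-named probes were dim, with a median level of -2.19 against -0.73, and 40.7% of them fell in the dimmest level class of all probes. Within the dimmest level class, 5 of 202 were higher and 8 lower (2.48% and 3.96%), against 7.70% and 9.41% of 7364 probes of the ASMM10P series. In the second level class the shares were 2.33% and 6.98% of 129 probes, against 6.71% and 8.25%, and in the third 4.71% and 3.53% of 85, against 8.05% and 8.03%. In the fourth level class 0 of 55 were higher and 1 lower, and in the brightest 0 of 25 in either direction. The lower share of changes was thus also seen within classes of like level, with few probes in each. Without bounds 5.04% of the 496 were higher, beside 9.997% of the ASMM10P series. After normexp background correction and quantile normalization 0.807% were higher and 2.02% lower, beside 5.50% and 4.17% of that series. The offset in normexp shrinks the folds of dim probes, so these shares do not compare probes of like level. Above background at day 4 only were 63 of the 496, and 29 at day 0 only, where all 38303 probes gave 2394 and 1721, a lean in the same direction.

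Among the human-named probes, 1102 in number and read here with mouse RNA, 8 were higher and 10 lower of 286. The highest measured change, on a probe above background on both arrays, was from 92.3 to 487 intensity units, 4.66-fold, in C3H10T1/2, where 3T3-L1 had 91.3 and 102. The 649 mouse-named probes gave 3 higher and 7 lower of 177. Their lowest measured change was from 744 to 229 units, 3.68-fold lower, where 3T3-L1 had 197 and 206. For these probes the days lay closer together in 3T3-L1. They were picked as extremes in C3H10T1/2, a choice that favours this contrast, and the contrast was not tested. The other measured extremes of both families ran the same way in each line. The lowest human-named probe had 117 and 36.3 units in C3H10T1/2 and 79.1 and 8.80 in 3T3-L1, the last under the lowest intensity above background there, 23.3. The highest mouse-named probe had 176 and 481 units in C3H10T1/2 and 311 and 721 in 3T3-L1. The 33 detected probes named MM9LINCRNAEXON, a small family, had 1 higher and 4 lower, among them the largest measured lincRNA change, from 704 to 44.8 units, 17.8-fold lower. In 3T3-L1 that probe had 76.2 and 21.2, the latter also under that lowest intensity.

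Probes of the ASMM10UP series, a name that is not explained in the files, leaned to lower signals. Of its 352 probes above background on at least 1 array, 8 (2.27%, interval 0.986% to 4.43%) were higher and 36 (10.2%, 7.27% to 13.9%) lower. Its share of lower probes was near that of the ASMM10P series, and its share of higher probes was below it. Of the 36 lower probes 26 were also 2-fold lower in 3T3-L1, where 66 of 401 were lower. From the dimmest to the brightest level class 1 of 94, 4 of 90, 3 of 75, 0 of 53 and 0 of 40 of its probes were higher, and 12, 10, 6, 6 and 2 were lower. The ASMM10P series had 7.70%, 6.71%, 8.05%, 9.40% and 11.3% higher and 9.41%, 8.25%, 8.03%, 7.03% and 5.59% lower in the same classes. After normexp and quantile normalization the ASMM10UP shares were 0.852% higher and 4.26% lower, beside 5.50% and 4.17% for the ASMM10P series. That setting shrinks the folds of dim probes, and the ASMM10UP probes were dimmer, with a median level of -1.52 against -0.73. The shares of this series and of the lincRNA-named families rest on small counts. Their intervals cover counting error only, treat probes as independent and hold no spread between cultures, so they are too narrow.

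**Figure D4:**
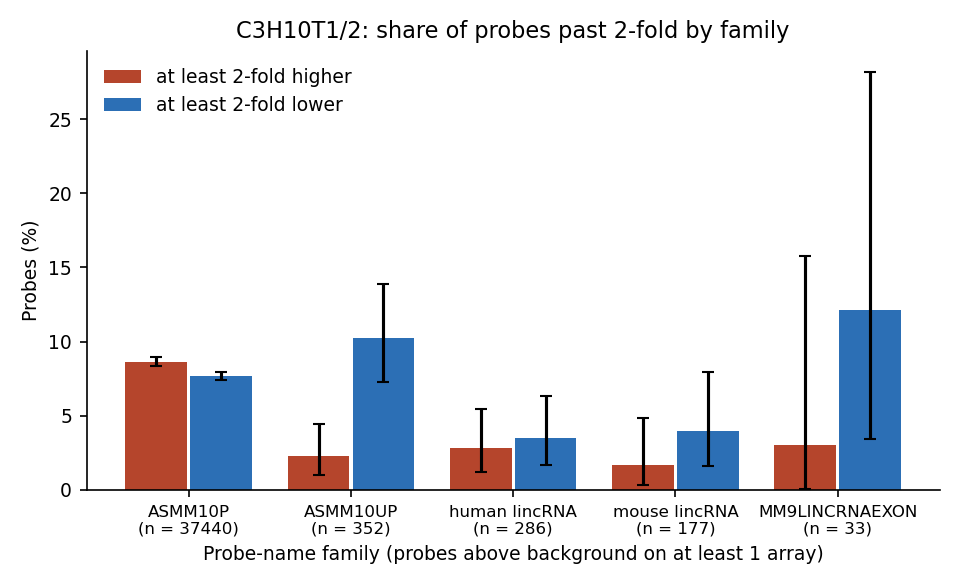
Percent of probes at least 2-fold higher or lower at day 4 in C3H10T1/2 by family of probe names, over probes above background on at least 1 array, whose number stands under each family. Bars carry exact 95% binomial intervals. By their values the human and mouse lincRNA families lie below the ASMM10P series in both directions, the ASMM10UP series only on the higher side, and the interval of MM9LINCRNAEXON, with 33 probes, is wide.

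Probes that changed in C3H10T1/2 often changed alike in 3T3-L1, and the share was larger at each step from 2-fold to 16-fold. The lines share no array. The base rates in 3T3-L1 were 8.51% for 2-fold higher and 10.2% for 2-fold lower over 36949 probes that were detected in both lines, and 8.45% and 10.6% over its own 40237. Of probes at least 2-fold higher in C3H10T1/2 and above background in 3T3-L1, 50.5% were also higher there. At 4-fold in C3H10T1/2 the share was 67.1% of 900, at 8-fold 75.4% of 345 and at 16-fold 83.2% of 167 (exact 95% binomial interval 76.7% to 88.6%). For lower probes the shares were 50.04% of 2640, 68.1% of 467, 71.6% of 102 and 79.4% of 34 (62.1% to 91.3%). Probes of 1 transcript are not independent, so the intervals are too narrow.

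By their medians, the probes at least 8-fold higher began lower in C3H10T1/2 than in 3T3-L1 and ended higher. The 379 probes at least 8-fold higher in C3H10T1/2 had a median level of -2.49 at day 0 and 2.28 at day 4, and -1.66 and 1.12 in 3T3-L1. At day 0, 63.9% of them were above background in C3H10T1/2 and 76.0% in 3T3-L1. They were chosen for a low day 0 and a high day 4 in C3H10T1/2, so the gap between the lines is a description and no evidence of a difference. Opposite changes were few, with 137 of the 3070 higher probes 2-fold lower in 3T3-L1 and 49 of the 2640 lower probes 2-fold higher, and the difference between the lines' responses has no test with 1 array in each group.

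**Figure D5:**
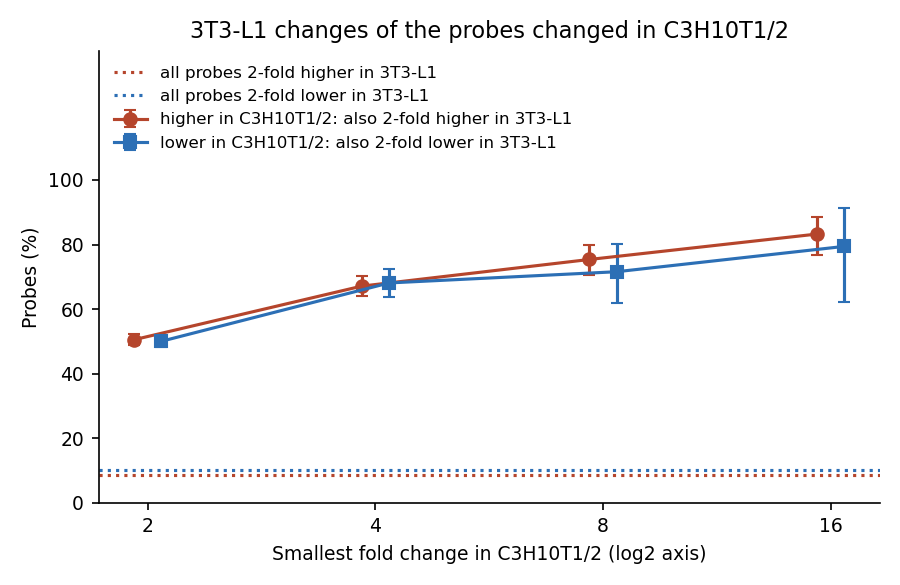
Percent of the probes changed in C3H10T1/2 that were at least 2-fold changed the same way in 3T3-L1 (y axis) by the smallest fold in C3H10T1/2 (x axis, log2 scale), over probes above background in both lines. Bars are exact 95% binomial intervals and dotted lines are the shares of all probes above background in both lines, 8.51% higher and 10.2% lower. The shares run from 50.5% to 83.2% for higher and from 50.04% to 79.4% for lower probes.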

How the data were processed

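RNA of 4 samples was measured. Per the file headers they share 1 slide and 1 scan, which therefore form no batches. Per the submitters' processing notes, scanning output came from Agilent Feature Extraction 11.0.1.1. The deposited scanner files hold an intensity per spot, background-subtracted and detrended within its array and not scaled between arrays, per the file headers, with unscaled medians and flags. Per the labels' protocols, RNA was freed of ribosomal RNA and amplified from oligo(dT) and random primers. A deposited table holds the authors' log2 values. Its method is not given in the sources used here. In each level class its shares past 2-fold nearly equalled those after quantile normalization, so it adds little as a separate check. Its columns correlated with the log2 scanner signals across probes at a Pearson's r between 0.9994 and 1.000, so they run in the same direction with no centring by gene, and it served as an alternative.

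Spots of a probe were averaged as log2 values without 112 outlier spots over 4 arrays, 15 probes printed once with an outlier spot were left out, and each array's 75th percentile over noncontrol probes was subtracted. Probes above background on 1 array only were counted by a bound, with the dim array set to the lowest signal called above background there, unless its own was higher. Of these, 45 whose bound turned the sign were not counted. Control spots were kept out of scaling. A call is a fold of 2 or more. The counting of changes was tested on simulated data with noise below the scanner software's error. That run checked the recovery of known changes and not the rate of false calls. Members and gene lists were chosen with earlier results of these data known. The rule for names was each gene with an accession that matched RefSeq (15 of 15, table of GRCm38; the array design used mm9, so gene coordinates are not given from it) and the 2 highest and 2 lowest probes above background on both arrays. Intervals are exact (Clopper-Pearson, 95%). The work used Python 3.11.15, pandas 2.3.3, scipy 1.17.1, matplotlib 3.10.9, and limma 3.58.1 in R 4.3.3 for normexp with an offset of 50. Normexp was run on median signals, and its offset shrinks the folds of dim probes by construction. The alternatives are other scalings, filters, folds, bounds and flags.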

Additional observations from a re-analysis of the deposited data

Results flagged for a closer look

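In the named genes, changes had opposite signs in the lines, with both beyond their spot SD, for 6 genes. Spots of the days overlapped in C3H10T1/2 for Hsp90ab1 and Ldhal6b, and in 3T3-L1 for Nono, Tbp, Ppia and Actb. The 3T3-L1 changes were not recomputed under other scalings, so opposite directions are not settled. These differences were not tested because each group has 1 array. Taking the change in C3H10T1/2 from that in 3T3-L1 left 0.944 (log2) for Nono, 0.709 for Hsp90ab1, 0.57 for Tbp, 0.51 for Ppia and 0.451 for Actb. For Ldhal6b, which was near background on 1 array of each line, it was -1.93 without bounds.

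Among control probes other than those of Gapdh and Pgk1, which the report describes, and the corner markers, 5 were above background at each of their spots on both C3H10T1/2 arrays. Their intensities at days 0 and 4 were 49.6 and 54.7 for (+)E1A_r60_a22, 57.5 and 68.0 for DCP_22_0, 48.0 and 44.8 for DCP_22_2, 58.5 and 83.4 for ERCC-00062_278 and 77.8 and 61.7 for ERCC-00097_63. The highest of 300 negative control spots had 42.5 and 41.8.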

How the results depend on the processing

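Of 118 recomputed counts and shares, 76 were labelled the same and 42 moved. A count was labelled the same within 1.5-fold of its main value, and a share inside the exact interval of its main value. The limit for counts is wide. Beside 3262 higher probes in the main values, 4297 with no filter and 4816 with the positive and significant flag were both labelled the same. The order of higher and lower turned over all probes (2972 higher, 3287 lower) and in the ASMM10P series (7.887% and 8.587%) with the 75th percentile of probes above background on both arrays. The counts past 2-fold by bounds turned there too, with 617 at day 4 only and 708 at day 0 only. The order also turned over all probes at 1.5-fold, and in the dimmest level class with normexp. The cause was not tested except where the setting itself fixes it. Lower and higher folds change the counts by construction: 6307 higher and 6570 lower at 1.5-fold, with 53.03% of the higher also 1.5-fold higher in 3T3-L1, and 974 and 571 at 4-fold, with 43.44% and 44.33% of them also 4-fold higher and lower in 3T3-L1. Normexp followed by quantile normalization gave 2067 higher and 1585 lower, 1.201% and 0.8354% in the dimmest and 9.216% and 6.775% in the brightest level class. It also gave 0.8065% and 2.016% for the lincRNA-named families, 0.8523% and 4.261% for ASMM10UP, 315 and 162 probes past 2-fold by bounds at day 4 only and day 0 only, and 48.01% also lower in 3T3-L1. Shares in the brightest level class were 9.242% and 6.931% with quantile normalization, 9.209% and 6.946% with the authors' log2 values, and 10.35% and 6.279% with the 75th percentile of probes above background on both arrays, which gave 6.644% and 10.53% in the dimmest. Array medians gave 8.158% and 8.445% there and 53.16% also higher in 3T3-L1. With probes above background on both arrays the dimmest level class had 2.896% and 4.914%, with no filter 0 and 0.00821%, with 41.56% and 38.1% also higher and lower in 3T3-L1. Without bounds it had 14.25% and 14.29%, with 5.04% of lincRNA-named probes higher and 53.63% also lower in 3T3-L1. The positive and significant flag in place of well above background gave 4816 higher and 4604 lower. Of 162 values of named genes and control probes, 92 moved by less than their spot SD, and 6, of Rpl13a (-0.08 to 0.14) and Tuba1b (-0.18 to 0.09), changed sign. Tfrc ranged from 2.88 to 3.13, G6pd2 from 1.283 to 1.497 and Nono from -0.90 to -0.72. Signal near background limits dim probes, where a fold is a bound.

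No paired analysis was possible because each group has 1 array, the labels carry no replicate numbers and no result comes from a test.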

Other observations

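Probes with neighbouring numbers in the ASMM10P series tended to change alike in C3H10T1/2. Over 25786 pairs of probes numbered 1 apart the changes had Pearson's r = 0.18, over pairs 2 apart 0.10, 5 apart 0.04 and 10 apart 0.00, as a description across probes of the same 2 arrays. Of 273 probes at least 8-fold higher whose next number was measured, 28.9% had that neighbour at least 2-fold higher (exact 95% binomial interval 23.6% to 34.7%), against 8.91% of all next numbers. At a distance of 1000 the share was 7.02%. Of 392 probes at least 4-fold lower, 24.7% had the next number 2-fold lower, against 7.80%. Numbers did not follow the layout of the array, with a median distance of 136 spot positions between probes 1 apart and 137 between those 1000 apart. The files do not say what the numbers stand for, and whether neighbours read the same transcript was not tested.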
